A study of Mus musculus with 10 samples.

Results

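The serine proteases of the mouse mast cell chymase locus on chromosome 14 were followed in lower airway mast cells. The 8 genes Cma1, Mcpt1, Mcpt9, Mcpt2, Mcpt4, Mcpt8, Ctsg and Gzmb were taken by symbol from the 22815 symbols of the count table. All 8 had counts, and all 8 were among the 10533 genes that passed the filter on low counts. RNA was sequenced from mast cells sorted by flow cytometry from wild type C57BL/6 mice aged 5 to 7 weeks, as amplified SmartSeq2 libraries read in pairs of 25 bases. The 4 groups were B7hi HDM (n = 3), B7low HDM (n = 3), B7hi PBS (n = 2) and B7low PBS (n = 2). HDM mice received 3 µg of house dust mite extract, an allergen preparation, in 20 µL through the nose 2 times a week for 3 weeks, and PBS mice received the vehicle. The series calls the cells inducible and constitutive, and in published work B7 stands for integrin β7, high on inducible and low on constitutive mast cells. The labels do not say whether libraries of a group came from separate mice or from pools, so the tests rest on the variation among libraries, part of which may be technical.

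Mast cells store serine proteases in their granules in an active form, bound to the proteoglycan serglycin and its heparin or chondroitin sulphate chains, after the cysteine protease cathepsin C has clipped off a short propeptide. In mice, mast cells of connective tissue are known for Cma1 (mast cell protease 5) and Mcpt4 (the chymase closest in activity to human chymase), whereas mucosal mast cells are known for Mcpt1 and Mcpt2. Mcpt8 is known from basophils, Mcpt9 from mast cells of the uterus, Ctsg (cathepsin G) from neutrophil granules, and Gzmb (granzyme B) from cytotoxic lymphocytes, which use it to kill target cells. Granzyme B has also been described in mast cells.

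On GRCm38 (the build also called mm10) the 8 genes lay within 320.8 kb of chromosome 14, between positions 55941451 and 56262260, a stretch with 26 annotated genes in GENCODE M21, of which 15 were protein coding. Cma1 (55941451 to 55944675, minus strand) marked one end and Gzmb (56258838 to 56262260, minus strand) the other. Between them, in this order, were Mcpt1 (56017971 to 56020384, plus strand), Mcpt9 (56026864 to 56030495, minus), Mcpt2 (56042041 to 56044642, plus), Mcpt4 (56059629 to 56062313, minus), Mcpt8 (56082166 to 56085273, minus) and Ctsg (56099881 to 56102574, minus).

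RefSeq promoter windows of GRCm38.p6, covering 250 bases before and 50 bases after the RefSeq gene start, were found for 7 of the 8 genes, Mcpt2 being the one without an entry. RefSeq and GENCODE starts can differ. The Gzmb window lies wholly before the GENCODE start of Gzmb (56262260), and the RefSeq start of Mcpt8 lies inside its GENCODE span. Motif distances are counted to the RefSeq start. The windows of the genes on which the comparisons turn are printed 5′ to 3′ on the gene's strand, with Mcpt1 set beside Mcpt4 because the windows were alike and the levels were not. Capitals mark, on either strand, the motif GATAA bound by GATA factors (TTATC on the other strand) and the motif TGTGGT bound by RUNX factors (ACCACA on the other strand). The windows are chr14:55944626-55944925 (minus strand) for Cma1, chr14:56062261-56062560 (minus) for Mcpt4, chr14:56017714-56018013 (plus) for Mcpt1, chr14:56085148-56085447 (minus) for Mcpt8 and chr14:56262285-56262584 (minus) for Gzmb.
Cma1: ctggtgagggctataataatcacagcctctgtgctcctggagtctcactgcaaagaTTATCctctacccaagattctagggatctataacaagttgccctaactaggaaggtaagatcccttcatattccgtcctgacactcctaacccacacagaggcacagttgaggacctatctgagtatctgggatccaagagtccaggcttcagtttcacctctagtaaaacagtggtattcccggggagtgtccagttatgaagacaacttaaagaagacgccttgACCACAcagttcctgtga
Mcpt4: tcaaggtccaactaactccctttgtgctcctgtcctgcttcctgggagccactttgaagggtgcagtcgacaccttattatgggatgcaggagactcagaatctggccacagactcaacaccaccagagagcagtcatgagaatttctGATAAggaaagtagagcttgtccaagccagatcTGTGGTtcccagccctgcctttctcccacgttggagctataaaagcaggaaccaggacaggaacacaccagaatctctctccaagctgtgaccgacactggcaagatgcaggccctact
Mcpt1: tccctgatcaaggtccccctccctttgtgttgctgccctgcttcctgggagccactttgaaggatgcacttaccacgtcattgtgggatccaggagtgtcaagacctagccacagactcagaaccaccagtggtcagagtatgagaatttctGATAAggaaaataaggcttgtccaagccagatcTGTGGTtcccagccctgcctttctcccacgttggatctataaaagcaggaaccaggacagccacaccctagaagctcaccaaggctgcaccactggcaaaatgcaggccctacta
Mcpt8: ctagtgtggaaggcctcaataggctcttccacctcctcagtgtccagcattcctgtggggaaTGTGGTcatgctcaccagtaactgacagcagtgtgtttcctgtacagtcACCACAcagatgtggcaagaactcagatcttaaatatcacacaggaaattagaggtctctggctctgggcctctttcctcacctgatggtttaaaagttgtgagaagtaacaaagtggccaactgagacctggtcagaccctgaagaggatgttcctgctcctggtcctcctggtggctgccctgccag
Gzmb: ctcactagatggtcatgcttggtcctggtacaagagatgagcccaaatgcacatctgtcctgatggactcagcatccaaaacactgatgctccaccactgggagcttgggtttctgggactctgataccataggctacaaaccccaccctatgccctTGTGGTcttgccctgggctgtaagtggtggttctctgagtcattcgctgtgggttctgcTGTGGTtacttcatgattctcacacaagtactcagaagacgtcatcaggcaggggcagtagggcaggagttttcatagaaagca

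The Mcpt1 and Mcpt4 windows were identical at 247 of 305 aligned columns, or 81.0%, whereas the next most similar pair of the 7 windows, Mcpt1 and Mcpt8, reached 51.4%. Counted to its leftmost letter, GATAA stood 98 bases before the start of Mcpt1 and 102 bases before that of Mcpt4, and TGTGGT followed it at 65 and 69 bases before the start. Cma1 held GATAA 194 bases before the start and TGTGGT 32 bases after it, both on the opposite strand. Mcpt8 and Gzmb each held TGTGGT at 2 places and no GATAA. Ctsg held TGTGGT once and CATGTG, a motif bound by basic helix-loop-helix factors such as MITF, with letters shared between the matches, whereas Mcpt9 held none of the 3 motifs. Of 32851 RefSeq promoter windows of the same length, 25.4% held GATAA, 16.8% TGTGGT and 14.2% CATGTG. These matches describe the letters of the windows and were chosen with the sequences in view.

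Total counts per library ran between 525983 (B7hi HDM 2) and 1725818 (B7hi PBS 2), so that a count of 0 allowed up to 5.70 CPM and 1.74 CPM in these libraries (3 counts over the total, counting error only). B7hi HDM 2 and B7low PBS 2, which had the lowest totals, also held the most of the noncoding RNA Kcnq1ot1. It measured 12133 CPM in B7hi HDM 2 and 6956 CPM in B7low PBS 2, while the 8 remaining libraries had between 806 and 2794 CPM. Without both libraries the numbers of the 8 proteases past the threshold were the same in every comparison. Levels are in CPM, counts scaled to a common TMM-adjusted library size, and differences are log2 fold changes from edgeR's quasi-likelihood test with Benjamini-Hochberg adjustment over all 10533 genes. All 15 mast cell identity markers, Kit, Fcer1a and Cpa3 among them, were detected in every library, with a summed level of 17889 to 30599 CPM in B7hi HDM, 38095 to 51737 CPM in B7low HDM, 14515 to 17779 CPM in B7hi PBS and 44654 to 68110 CPM in B7low PBS. Of these 15 markers, 8 were lower in B7hi over both challenges and 0 higher, where 6.08% of all tested genes were lower and 5.8% higher. The summed level of 7 B cell markers was 7.5 to 21.9 CPM in B7hi HDM and 81.5 to 613 CPM in B7low HDM, against 14.4 to 71.5 CPM in B7hi PBS and 19.2 to 40.1 CPM in B7low PBS, and its part in the results was not tested. By edgeR, 3 of these markers were lower in B7hi with HDM, where 2.84% of all tested genes passed, and 0 passed with PBS. The 3 were Cd79a, Cd79b and Ms4a1 (edgeR adjusted p = 0.031, 0.0065 and 0.0095). The 10 macrophage and dendritic cell markers summed to at most 44.7 CPM in any library. The 11 endothelial, epithelial and stromal markers summed to 223 to 277 CPM in B7hi HDM, 209 to 294 CPM in B7low HDM, 243 to 303 CPM in B7hi PBS and 75.2 to 202 CPM in B7low PBS. One of them, the adhesion molecule Cdh1 (E-cadherin), was higher in B7hi with PBS (log2 fold change 3.36, edgeR adjusted p = 4.2e-04) and over both challenges (2.03, edgeR adjusted p = 1.5e-04), while Epcam reached at most 2.71 CPM and Col1a1 0.632 CPM. The part of these markers in the results was not tested. In sorted bulk RNA, a smaller share of cells making a transcript and less of it per cell cannot be told apart. The 8 proteases together took 1.59% (B7hi PBS 2, exact binomial 95% interval 1.57 to 1.61) to 4.28% (B7low HDM 2, 4.25 to 4.31) of a library's counts.

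**Figure D1:**
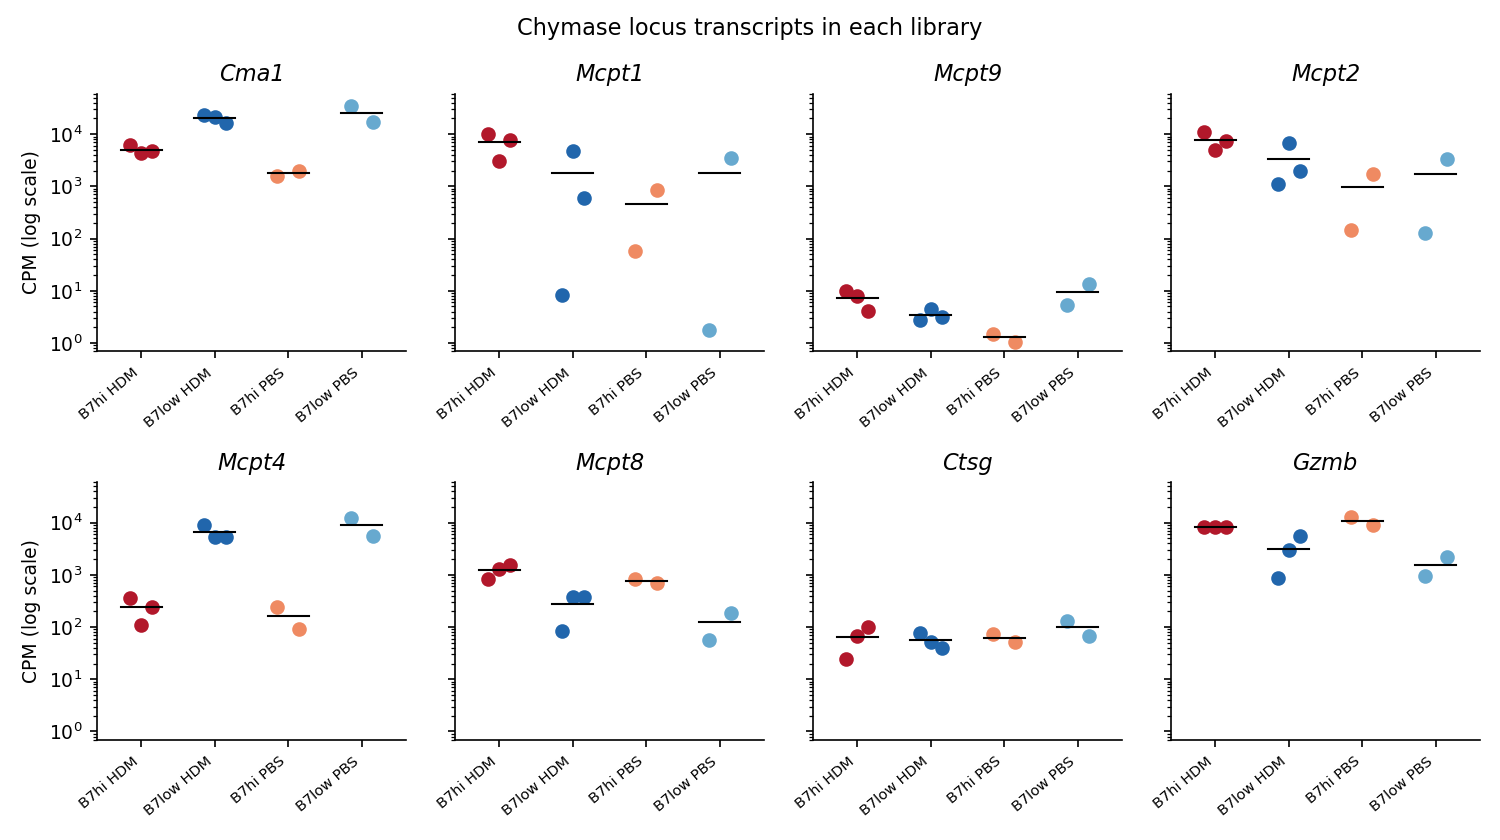
Level of each of the 8 proteases in each of the 10 libraries, in CPM on a log axis shared by all panels, with panels in the order of the genes along chromosome 14; points are libraries and bars are group means (n = 3, 3, 2 and 2). Cma1 and Mcpt4 lay lower in every B7hi library than in any B7low library, Mcpt8 and Gzmb lay higher, and Mcpt1 and Mcpt2 were spread widely within groups.

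The first question was how both sorted populations differ in these proteases under each challenge. The connective tissue proteases Cma1 and Mcpt4 were lower in B7hi cells with either challenge, and Mcpt8 and Gzmb were higher in B7hi cells when both challenges were averaged. With PBS 2 of the 8 genes passed the test, both lower, where 6.54% of all tested genes passed in either direction. With HDM 2 of the 8 passed, again both lower, against 2.84% of all tested genes. Averaged over both challenges 4 of the 8 passed, against 11.9% of all tested genes. These were 2 higher (5.8% of all tested genes were called higher) and 2 lower (6.08% were called lower).

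Cma1 was at 6205, 4282 and 4736 CPM in B7hi HDM, against 23323, 21480 and 16088 CPM in B7low HDM. Under PBS its level was 1605 and 1927 CPM in B7hi, against 34315 and 17227 CPM in B7low. The 5 B7hi libraries thus all lay under the 5 B7low libraries, and within B7hi the PBS libraries were the lowest. B7hi over B7low gave a log2 fold change of −2.0 ± 0.28 with HDM (SE, edgeR adjusted p = 7.3e-04) and −3.87 ± 0.38 with PBS (edgeR adjusted p = 1.8e-05). Cma1 was number 2 of all transcripts by group mean CPM in both B7low groups, number 6 in B7hi HDM and number 30 in B7hi PBS. Of the 25-base words in its transcript, 12.9% occur in another gene, mainly the pseudogene Gm48934 of the same locus.

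Mcpt4, a chymotrypsin-like protease that degrades extracellular matrix and peptide hormones, had the largest fitted population difference of the 8 genes under each challenge. It was at 363, 108 and 241 CPM in B7hi HDM, against 8896, 5244 and 5392 CPM in B7low HDM. With PBS it was at 239.6 and 90.3 CPM in B7hi, against 12288 and 5500 CPM in B7low. No B7hi library came near a B7low library, the highest B7hi value being 363 CPM and the lowest B7low value 5244 CPM. For Mcpt4 the log2 fold change was −4.76 ± 0.56 with HDM (edgeR adjusted p = 8.2e-04) and −5.76 ± 0.72 with PBS (edgeR adjusted p = 8.5e-04). Of the 25-base words in its transcript, 18.1% occur in another gene, mainly Cma2 and Mcpt9, both of which were at 13.4 CPM or less.

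Gzmb was nearly flat across the B7hi HDM libraries, at 8299, 8107 and 8375 CPM, against 877, 2966 and 5665 CPM in B7low HDM. The PBS levels of Gzmb were 12984 and 8924 CPM in B7hi, against 930.2 and 2194 CPM in B7low. The lowest B7hi library (8107 CPM) was above the highest B7low library (5665 CPM), and Gzmb was number 2 of all transcripts by mean CPM in both B7hi groups. The log2 fold change over both challenges was 2.10 ± 0.46 (edgeR adjusted p = 0.019). For each challenge alone it was 1.38 ± 0.57 with HDM (95% interval 0.09 to 2.67, adjusted p = 0.33) and 2.81 ± 0.74 with PBS (1.15 to 4.47, adjusted p = 0.056), neither past 0.05 by edgeR. The call over both challenges was lost when B7hi PBS 1 (edgeR adjusted p = 0.081) or B7low PBS 1 (0.091) was left out, or with no count filter (0.067).

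Markers of cytotoxic lymphocytes other than Gzmb were measured beside it. Their 15 genes summed to 212 to 856 CPM in B7hi HDM, 48.8 to 248 CPM in B7low HDM, 583 to 815 CPM in B7hi PBS and 64.7 to 194 CPM in B7low PBS, and 0 of the 10 tested passed in any of the 3 B7hi over B7low comparisons by edgeR. Over both challenges their median log2 fold change was 2.83, against 0.029 over all genes. By edgeR 7 of the 10 had an unadjusted p under 0.05, all higher in B7hi, as against 2707 of all 10533 tested genes. DESeq2 called 2 of the 10, as against 1411 of all tested genes, and limma-voom 1, as against 1035. The part of these markers in the Gzmb difference was not tested. Nkg7, a granule membrane protein, made up over 50% of the sum in 9 of the 10 libraries (41.2% in B7hi HDM 3), at 139, 245 and 353 CPM in B7hi HDM and 33.9, 89.1 and 224 CPM in B7low HDM, and at 521 and 448 CPM in B7hi PBS and 36.7 and 124 CPM in B7low PBS. Gzma, the other main lymphocyte granzyme, was at 53.1, 72.4 and 361 CPM in B7hi HDM and 0, 13.7 and 0 CPM in B7low HDM, and at 3.78 and 211 CPM in B7hi PBS and 0 CPM in both B7low PBS libraries. The library with the highest Gzmb (B7hi PBS 1, 12984 CPM) also had the highest Nkg7 (521 CPM) and perforin (Prf1, 50.6 CPM) of the 10 libraries. It had Cd3e, Eomes and Tbx21 at 0, Cd8a at 0.756 CPM and Gzma at 3.78 CPM. In that library the 15 markers summed to 583 CPM with 7 of them at 0. In B7hi PBS 2 they summed to 815 CPM with 0 of them at 0. In B7hi HDM 1, 2 and 3 the sums were 212, 376 and 856 CPM, with 5, 5 and 1 at 0. Among the natural killer receptors of the 15 markers, Ncr1 and Klrb1c reached at most 10.4 and 4.11 CPM across the 10 libraries. The others, Klrd1 and Klrk1, had log2 fold changes of 4.62 and 2.45 over both challenges, higher in B7hi. Neither passed (edgeR adjusted p = 0.11 and 0.15).

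Mcpt8 had the same direction as Gzmb. It was at 821, 1288 and 1552 CPM in B7hi HDM, against 82.7, 368 and 383 CPM in B7low HDM. In the PBS groups Mcpt8 was at 837 and 691 CPM in B7hi, against 57.7 and 189 CPM in B7low. The 5 B7hi libraries (691 to 1552 CPM) all lay above the 5 B7low libraries (57.7 to 383 CPM). The log2 fold change over both challenges was 2.37 ± 0.47 (edgeR adjusted p = 0.012), and it did not pass without B7hi PBS 1 (adjusted p = 0.057). With HDM alone it was 2.12 ± 0.58 (95% interval 0.81 to 3.44, adjusted p = 0.11) and with PBS alone 2.63 ± 0.74 (0.94 to 4.31, adjusted p = 0.073). No 25-base word of the Mcpt8 transcript occurs in another gene, and 2.41% of those of Gzmb do, mainly in Gzmc.

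The 7 other basophil markers gave no common direction beside Mcpt8. They summed to 1280 to 1736 CPM in B7hi HDM, 1361 to 1824 CPM in B7low HDM, 1233 to 1767 CPM in B7hi PBS and 1439 to 1627 CPM in B7low PBS. Prss34, a serine protease also used to mark mouse basophils, was at 48.1, 11.7 and 25.3 CPM in B7hi HDM and 390, 548 and 528 CPM in B7low HDM, and at 2.27 and 8.35 CPM in B7hi PBS and 549 and 532 CPM in B7low PBS. Its log2 fold change over both challenges was −5.27 ± 0.35 (edgeR adjusted p = 3.5e-07). Cd200r3 (−2.39, adjusted p = 1.2e-05) and Clec10a (−5.11, adjusted p = 0.0036) were also lower in B7hi by edgeR, whereas Ifitm1 (1.85, adjusted p = 0.022) and the cytokine receptor chain Csf2rb2 (0.66, adjusted p = 0.038) were higher.

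**Figure D2:**
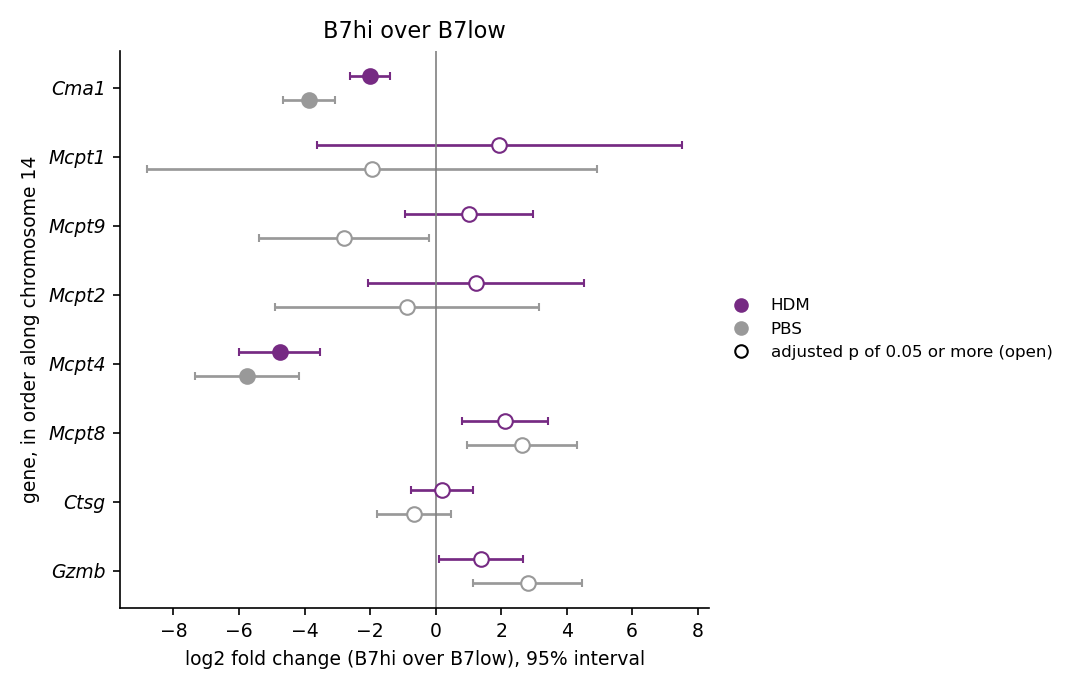
Log2 fold change of B7hi over B7low for each of the 8 proteases with HDM (upper point of each pair) and with PBS (lower point), with 95% intervals from the edgeR fit; filled points passed an adjusted p of 0.05 over all genes. Cma1 and Mcpt4 are the filled points under both challenges, and the intervals of Mcpt1 and Mcpt2 span several log2 units to either side of 0.

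Separation of the raw ranges was common and is read against all genes. With HDM, 4 of the 8 genes had CPM ranges that did not overlap between B7hi and B7low (Cma1 and Mcpt4 lower, Mcpt8 and Gzmb higher), where 20.5% of all tested genes were separated. With PBS and 2 libraries a group, 5 of the 8 were separated (Mcpt9 lower in addition to the same 4), where 51.9% of all genes were. Over both challenges together the 5 B7hi and 5 B7low libraries were separated for Cma1, Mcpt4, Mcpt8 and Gzmb, and overlapped for Mcpt1, Mcpt2, Mcpt9 and Ctsg, where 9.4% of all tested genes were separated.

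The mucosal proteases Mcpt1 and Mcpt2 had overlapping B7hi and B7low libraries under both challenges and did not pass the test. Mcpt1, which opens epithelial junctions and is known from worm expulsion, was at 10237, 3120 and 7618 CPM in B7hi HDM, against 8.13, 4826 and 587 CPM in B7low HDM. With PBS it was at 56.7 and 861 CPM in B7hi, against 1.75 and 3550 CPM in B7low. Both extremes occur among libraries of the same label: B7low HDM 1 and B7low PBS 1 held 6 counts and 1 count of Mcpt1, while B7low HDM 2 and B7low PBS 2 held 7420 and 2123 counts. The log2 fold change of B7hi over B7low was 1.95 with HDM (95% interval −3.63 to 7.53, edgeR adjusted p = 0.80) and −1.95 with PBS (−8.81 to 4.91, adjusted p = 0.74), so that differences of many fold in either direction lie inside the intervals.

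Mcpt2, a close relative of Mcpt1 with little known activity of its own, was at 10903, 4893 and 7481 CPM in B7hi HDM, against 1111, 6856 and 1932 CPM in B7low HDM. With PBS it was at 147 and 1758 CPM in B7hi, against 126 and 3395 CPM in B7low. The 3 libraries lowest in Mcpt1 (B7low PBS 1, B7low HDM 1 and B7hi PBS 1) were also the 3 lowest in Mcpt2. B7hi and B7low overlapped under both challenges. The log2 fold change was 1.23 with HDM (95% interval −2.07 to 4.53, edgeR adjusted p = 0.79) and −0.88 with PBS (−4.91 to 3.14, adjusted p = 0.80). With HDM the fold changes of Mcpt1 and Mcpt2 stayed positive under every alternative, at 1.37 to 4.94 and 0.82 to 2.35. The signs of the PBS fold changes rested on single libraries: without B7low PBS 2 they were 7.98 for Mcpt1 and 2.94 for Mcpt2, and without B7hi PBS 1 that of Mcpt2 was 0.039, none of them past the test.

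The ratio of Mcpt1 to Mcpt2, each in CPM per kilobase of exon, was 0.982, 0.667 and 1.07 in B7hi HDM, against 0.00766, 0.736 and 0.318 in B7low HDM. With PBS it was 0.404 and 0.513 in B7hi, against 0.0145 and 1.09 in B7low. In B7low HDM 1 and B7low PBS 1, Mcpt2 was thus present (820 and 72 counts) with almost no Mcpt1. The transcripts were 70.7% identical (787 of 1113 aligned columns), and 5.66% of the 25-base words of Mcpt1 occur in Mcpt2 and 5.40% the other way. How the deposited counts treated reads that match both genes is not given in the sources used here.

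**Figure D3:**
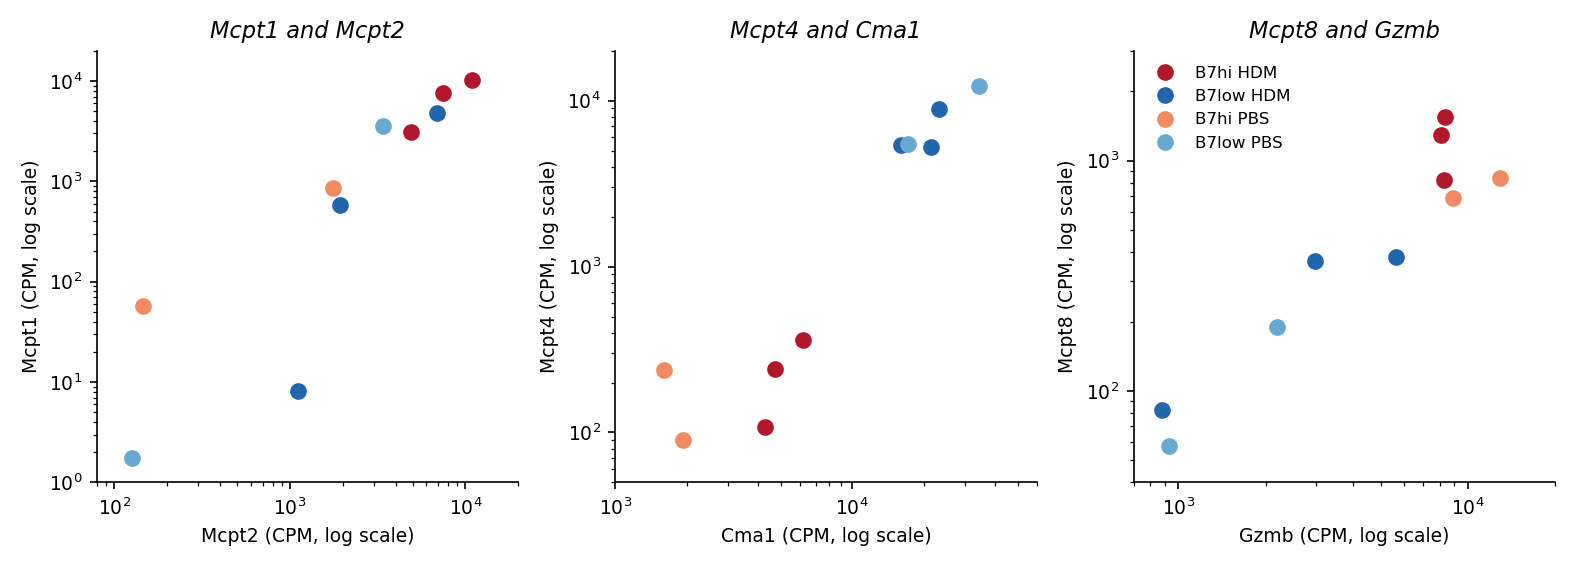
Level of one protease against another in the 10 libraries, in CPM on log axes, for Mcpt1 and Mcpt2, Mcpt4 and Cma1, and Mcpt8 and Gzmb; each point is a library and colours give the 4 groups. B7hi and B7low form separate sets for Mcpt4 with Cma1 and for Mcpt8 with Gzmb, and are mixed for Mcpt1 with Mcpt2.

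Ctsg and Mcpt9 were the least abundant of the 8 genes. Ctsg was at 24.4, 66.5 and 99.3 CPM in B7hi HDM, against 75.9, 52.7 and 40.4 CPM in B7low HDM. Ctsg with PBS was at 74.1 and 50.6 CPM in B7hi, against 129 and 66.9 CPM in B7low. The groups overlapped, and the log2 fold change over both challenges was −0.24 (95% interval −0.98 to 0.50, edgeR adjusted p = 0.72). Beside it, 12 markers of neutrophils and monocyte precursors summed to 0 to 5.87 CPM in B7hi HDM, 4.42 to 25.8 CPM in B7low HDM, 1.51 to 8.35 CPM in B7hi PBS and 3.50 to 10.03 CPM in B7low PBS.

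Mcpt9 had 2 to 16 counts per library. It was at 10, 7.83 and 4.11 CPM in B7hi HDM, against 2.71, 4.55 and 3.16 CPM in B7low HDM, and at 1.51 and 1.04 CPM in B7hi PBS, against 5.24 and 13.4 CPM in B7low PBS. These values lie near the limit that a count of 0 allows. For Mcpt9 the log2 fold change was 1.02 with HDM (edgeR adjusted p = 0.71) and −2.79 with PBS (edgeR adjusted p = 0.20). Of the 25-base words of its transcript, 28.4% occur in another gene, mostly Cma2.

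The rest of the locus was low, apart from the pseudogene Mcpt-ps1, which reached 163 CPM in B7hi HDM 1. Of 18 further annotated genes in the stretch, 9 had a row in the table and the other 9 were not analysed here. Among the 9, 8 were on the list of locus genes, of which 2, the pseudogene Mcpt-ps1 and the granzyme Gzmc, had enough counts to be tested, and the processed pseudogene Gm5801 had 0 to 2 counts per library. Mcpt-ps1 was at 163, 76.3 and 149 CPM in B7hi HDM, 23.0, 127 and 58.1 CPM in B7low HDM, 42.3 and 47.5 CPM in B7hi PBS and 26.2 and 87.0 CPM in B7low PBS (log2 fold change over both challenges 0.27, edgeR adjusted p = 0.75). It overlaps Cma2 on the opposite strand, and without knowledge of strand their reads cannot be told apart. Of the 25-base words of Mcpt1 and Mcpt2, 3.43% and 4.63% occur in Mcpt-ps1. Gzmc was at 16.9, 7.83 and 11.0 CPM in B7hi HDM, 5.42, 3.90 and 7.58 CPM in B7low HDM, 43.1 and 14.1 CPM in B7hi PBS and 0 and 16.7 CPM in B7low PBS (1.42, edgeR adjusted p = 0.15). Gzmf and Gzmg had 0 counts in all 10 libraries, and Cma2 reached at most 5.87 CPM. The median log2 fold change of the 2 tested genes was 0.85, against 0.029 over all genes.

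The second question was whether HDM challenge moved these transcripts within a population. None of the 8 genes passed the edgeR test for HDM over PBS in B7hi or in B7low, where 0.00949% of all tested genes passed in each (1 gene each, Ecm1 in B7hi and Il6 in B7low). At an unadjusted p under 0.05 there were 2 of the 8 in B7hi (Cma1 and Mcpt9), as against 435 of all genes, and 0 of the 8 in B7low, as against 956 of all genes. DESeq2 and limma-voom each called 1 of the 8 in B7hi (Cma1) and 0 in B7low. CPM ranges were separated for 5 of the 8 genes in B7hi (20.6% of all tested genes) and for 1 of the 8, Mcpt9, in B7low (23.9% of all tested genes).

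In B7hi cells, all 3 HDM libraries had more Cma1 than both PBS libraries (4282 to 6205 CPM against 1605 to 1927 CPM). The log2 fold change was 1.52 ± 0.32 (95% interval 0.84 to 2.21, unadjusted p = 2.2e-04, edgeR adjusted p = 0.16). It also passed 0.05 with no count filter. Mcpt1 and Mcpt2 had larger values in each B7hi HDM library than in both B7hi PBS libraries, with log2 fold changes of 3.93 (−3.29 to 11.1) and 3.02 (−1.12 to 7.17), both at an edgeR adjusted p of 0.9994. Gzmb was at 8107 to 8375 CPM in the B7hi HDM libraries and at 12984 and 8924 CPM in the B7hi PBS libraries, a log2 fold change of −0.41 (−1.81 to 0.99, edgeR adjusted p = 0.9994). Mcpt8 (0.68), Mcpt4 (0.55) and Ctsg (0.02) had overlapping B7hi groups.

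In B7low cells the HDM fold change of Cma1 was −0.34 (95% interval −0.99 to 0.30, edgeR adjusted p = 0.77). That of Gzmb was 1.02 (−0.44 to 2.48, adjusted p = 0.67 by edgeR) and that of Mcpt8 1.18 (−0.35 to 2.71, edgeR adjusted p = 0.64). Mcpt4 was at −0.45 and Ctsg at −0.82, and Mcpt1 and Mcpt2 at 0.03 and 0.91, with an interval of −6.02 to 6.07 for Mcpt1.

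The difference between the populations in their HDM effect (interaction, B7hi minus B7low on the log2 scale) was tested directly. It passed for 0 of the 8 genes by edgeR, as for 0.0% of all tested genes, and had an unadjusted p under 0.05 for 2 of the 8, as against 901 of all genes. The 2 were Cma1 at 1.87 ± 0.44 (95% interval 0.94 to 2.79, unadjusted p = 5.5e-04, edgeR adjusted p = 0.22) and Mcpt9 at 3.81 (0.58 to 7.05, edgeR adjusted p = 0.52). For Cma1 this is the difference between the population gaps of −2.0 with HDM and −3.87 with PBS. The interaction of Gzmb was −1.43 (−3.44 to 0.58) and that of Mcpt8 −0.50 (−2.55 to 1.54). The Cma1 interaction passed with DESeq2 (adjusted p = 0.0040) and with no count filter (0.0012), limma-voom called 0 of the 8, and over all alternatives its adjusted p ran up to 0.70.

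**Figure D4:**
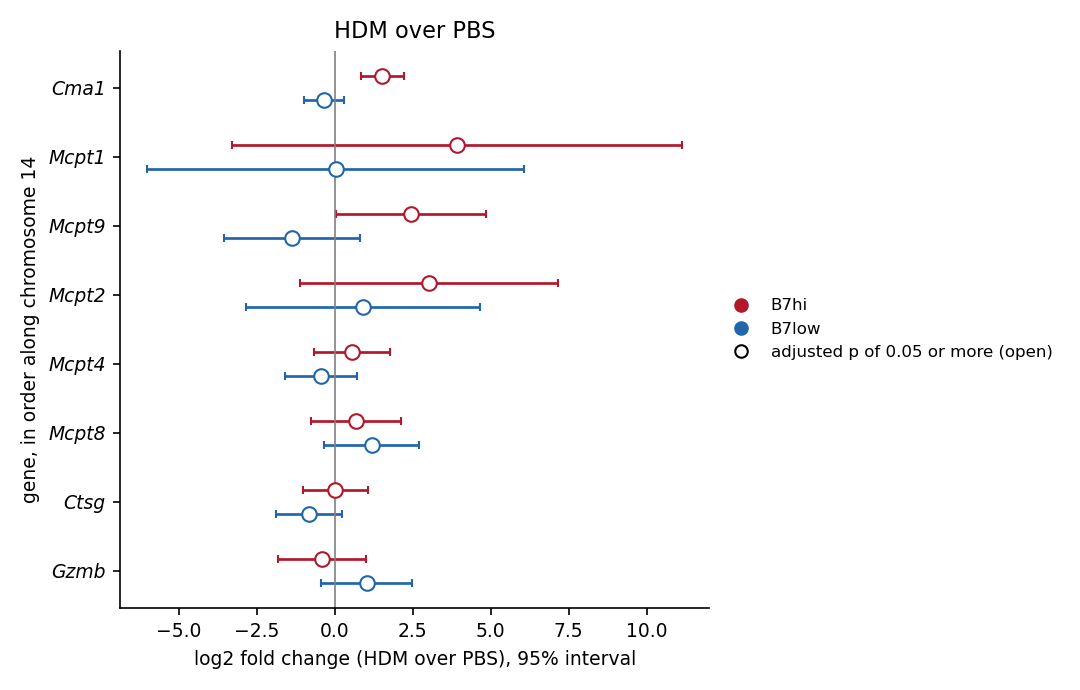
Log2 fold change of HDM over PBS for each of the 8 proteases in B7hi (upper point of each pair) and in B7low (lower point), with 95% intervals from the edgeR fit; open points did not pass an adjusted p of 0.05. All points are open, and the interval of Cma1 in B7hi (0.84 to 2.21) lies to the right of that in B7low (−0.99 to 0.30).

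To compare genes with each other, levels were divided by exon length and expressed as a share of the 8 genes' summed CPM per kilobase. In B7hi HDM the sum was split among Mcpt2 (27.4% ± 3.34, SD), Mcpt1 (25.1% ± 7.58), Gzmb (23.2% ± 6.43) and Cma1 (18.2% ± 2.47), with Mcpt4 at 0.776% ± 0.239. In B7low HDM it was mainly Cma1 (58.7% ± 8.74) and Mcpt4 (18.9% ± 6.65), with Mcpt2 at 9.06% ± 7.05, Gzmb at 7.44% ± 6.73 and Mcpt1 at 4.90% ± 6.65. In B7hi PBS the largest part was Gzmb (65.7% ± 15.2), followed by Cma1 (14.03% ± 2.25), Mcpt2 (7.91% ± 9.53) and Mcpt8 (6.60% ± 0.679). In B7low PBS it was Cma1 (63.2% ± 12.9) and Mcpt4 (21.2% ± 6.02), with Gzmb at 3.36% ± 2.64. The shares of 1 library sum to 100%, so a lower share of a gene need not be a lower level. The SDs give the spread of a gene's share between libraries and do not compare genes within a library, which was not tested. In B7hi HDM the order of Mcpt2, Mcpt1 and Gzmb changed between libraries. Among these, Gzmb was the highest in B7hi HDM 2 (30.2%) and the lowest in B7hi HDM 1 (17.5%). In B7low HDM, Mcpt2 was above Mcpt1 in each library.

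**Figure D5:**
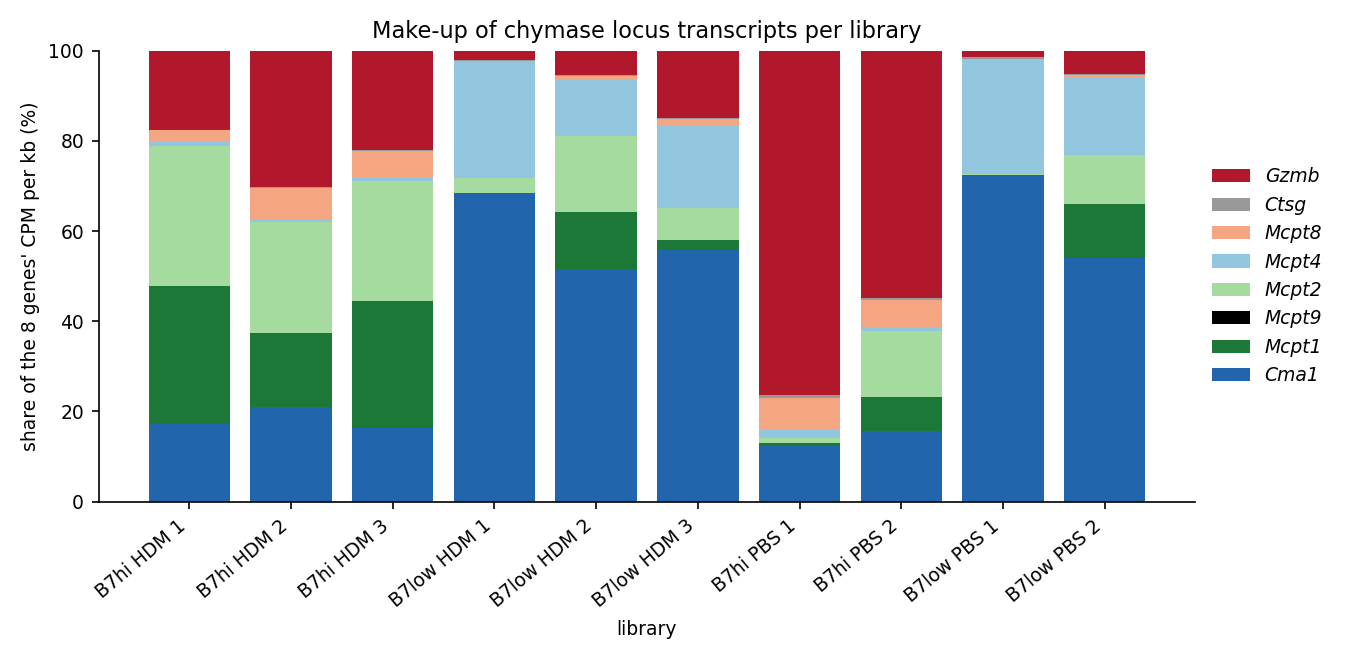
Share of each protease in the summed CPM per kilobase of the 8 genes, one bar per library, in percent; segments are stacked in the order of the genes along chromosome 14 from Cma1 at the bottom to Gzmb at the top. Cma1 and Mcpt4 fill most of each B7low bar, Gzmb fills 54.9% and 76.4% of the B7hi PBS bars, and Mcpt1 with Mcpt2 fill the largest part of each B7hi HDM bar.

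Within the connective tissue pair, the ratio of Mcpt4 to Cma1 per kilobase was computed in each library. It was 0.0576, 0.0247 and 0.0501 in B7hi HDM, against 0.375, 0.240 and 0.330 in B7low HDM, and 0.147 and 0.0461 in B7hi PBS, against 0.352 and 0.314 in B7low PBS. All 5 B7hi ratios (0.0247 to 0.147) were thus under all 5 B7low ratios (0.240 to 0.375). The ratio of Mcpt8 to Gzmb per kilobase ranged between 0.0893 and 0.267 over the 10 libraries, with 0.142, 0.229 and 0.267 in B7hi HDM, 0.136, 0.179 and 0.0973 in B7low HDM, 0.0927 and 0.111 in B7hi PBS and 0.0893 and 0.124 in B7low PBS.

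The genes nearest in pattern to 4 of the proteases were found among 6069 genes by the root mean square difference between profiles of log2(CPM + 1) over the 10 libraries, each centred and scaled to its SD, as a description with no test. Nearest to Cma1 were Nav1 (0.148), the tryptase Tpsb2 (0.187), the tetraspanin Cd81 (0.187), the transcription factor Lyl1 (0.189) and the adenosine receptor Adora3 (0.190), while Mcpt4 ranked 58 (0.333). Nearest to Mcpt1 were Sash3 (0.270), Mcpt-ps1 (0.338), Itga7 (0.347), Abi3 (0.350) and Farsa (0.385), and Mcpt2 ranked 12 (0.448). Mcpt1 shares 3.43% of its 25-base words with Mcpt-ps1, and the part of shared reads in this likeness was not tested. Nearest to Mcpt8 was Ctsc (0.206), which encodes cathepsin C, then Gmpr (0.218), Rpl10a (0.249), Acap1 (0.265) and Galnt2 (0.277), with Gzmb at rank 22 (0.315). Nearest to Gzmb were Lag3 (0.188), Ivns1abp (0.208), the potassium channel Kcnn4 (0.230), Acap1 (0.233) and Twistnb (0.242).

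Genes of protease activation and granule storage differed in both directions between populations. Of 23 listed and tested, 3 were higher and 6 lower in B7hi over both challenges by edgeR, where 5.8% of all tested genes were higher and 6.08% lower, with a median log2 fold change of −0.28, against 0.029 over all genes. Ndst2, which starts the sulphation of heparin, was lower (−1.38 ± 0.18, edgeR adjusted p = 9.9e-05), as was Ext1, which elongates heparan sulphate chains (−1.99 ± 0.27, edgeR adjusted p = 1.2e-04). Lyst, a regulator of lysosome-related granule size, and the aspartic protease Ctsd were lower too (−1.79 ± 0.31 and −1.09 ± 0.21). The 3 higher genes, named after their values were seen, were Rab27a (1.29) and Rab38 (1.83), GTPases of lysosome-related organelles, and Ctsc (0.83 ± 0.20, edgeR adjusted p = 0.013). Ctsc averaged 628 ± 37.2 CPM in B7hi HDM, against 353 ± 105 CPM in B7low HDM, and 481 ± 53.2 CPM in B7hi PBS, against 269 ± 83.4 CPM in B7low PBS. The serglycin core gene Srgn averaged 3188 ± 229 CPM in B7hi HDM, against 3124 ± 106 CPM in B7low HDM, and 3887 ± 823 CPM in B7hi PBS, against 2539 ± 516 CPM in B7low PBS. Without B7low PBS 1 the counts were 0 higher and 4 lower, and without B7hi PBS 1 they were 1 and 5.

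Of 18 listed serpins and other protease inhibitors, 6 were tested, and 0 were higher and 2 lower in B7hi over both challenges by edgeR (5.8% and 6.08% of all tested genes), with a median log2 fold change of 0.53, against 0.029 over all genes. Serpinb6a, an intracellular inhibitor of serine proteases, was lower (−1.79 ± 0.30, edgeR adjusted p = 9.2e-04), at 18.0 ± 4.02 CPM in B7hi HDM, against 66.8 ± 15.1 CPM in B7low HDM, and at 27.6 ± 13.4 CPM in B7hi PBS, against 92.3 ± 50.1 CPM in B7low PBS. Serpinb1a, whose human counterpart inhibits neutrophil serine proteases and chymase, was lower as well (−0.89 ± 0.21, edgeR adjusted p = 0.010). Spint2 and Serpinb6b had positive fold changes that did not pass (1.04 and 1.20, edgeR adjusted p = 0.090 and 0.18). The 2 calls became 1 without B7hi PBS 2 or without B7low PBS 1, and without B7low PBS 2 there were 1 higher and 2 lower.

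Of 26 listed regulators linked to mast cell protease expression, 25 were tested, and 2 were higher and 7 lower in B7hi over both challenges by edgeR (5.8% and 6.08% of all tested genes), with a median log2 fold change of −0.43, against 0.029 over all genes. This list, like the activation and inhibitor lists, was chosen with earlier results of these data known, so its count is a description. The transcription factors Meis2 (−6.91 ± 0.68, edgeR adjusted p = 2.8e-05) and Klf4 (−3.18 ± 0.38, edgeR adjusted p = 3.5e-05) were lower. So were Il10rb, a chain of the interleukin-10 receptor (−2.05 ± 0.20, edgeR adjusted p = 4.7e-06), and Tgfbr1, a chain of the receptor for TGF-β, the cytokine known to raise Mcpt1 in cultured mouse mast cells (−1.02 ± 0.21, edgeR adjusted p = 0.0046). The 2 higher genes, named after their values were seen, were Runx1 (1.02) and Skil (0.81), a corepressor of SMAD signalling. Without both B7low PBS 2 and B7hi HDM 2 the counts were 0 higher and 6 lower, without B7hi PBS 1 they were 1 and 5, and without B7low PBS 2 they were 1 and 6. For HDM over PBS, 0 genes of the activation, inhibitor and regulator lists passed by edgeR in either population. At an unadjusted p under 0.05 there were 5 of 23, 1 of 6 and 5 of 25 genes of these lists in B7hi. Over all 10533 tested genes there were 435. In B7low there were 2, 2 and 1 of these lists, as against 956 of all genes. DESeq2 called 1, 0 and 1 in B7hi, as against 55 of all genes, and 0 in B7low, as against 19. Limma-voom called 0 in both, as against 9 of all genes in B7hi and 0 in B7low.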

How the data were processed

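The deposited table holds raw counts per gene symbol, whole numbers with 1 column per library, made by the authors. Per the submitters' processing notes the tools were TopHat2 2.0.10, Cufflinks 2.2.1 and DESeq2 and the build was mm10, with no roles stated. Not given in the sources used here: how reads were counted, with which annotation and whether by strand. Reads of 25 bases shared by close relatives (Mcpt1, Mcpt2, Mcpt4, Mcpt9, Cma2, Mcpt-ps1) may have been split or dropped.

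Groups came from the titles. Counts were filtered with filterByExpr (minimum count 10; 10533 genes kept), TMM-scaled and entered into edgeR 4.0.16 (R 4.3.3) for a robust quasi-likelihood model with 1 mean per group over all 10 libraries. The common biological coefficient of variation was 0.359. The 6 contrasts were tested two-sided with Benjamini-Hochberg adjustment over all genes and a threshold of 0.05. The fit was run on counts simulated with the common dispersion for every gene and with differences between populations alone. That setting holds no HDM effect and not the wide spread of Mcpt1 and Mcpt2. SE was derived as the absolute log2 fold change divided by √F, and 95% intervals use the t distribution of the fit.

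Positions and exon lengths are from GENCODE M21 on GRCm38, 1-based, and promoters from RefSeq (GRCm38.p6). Words of 25 bases were compared between all transcripts. Alternatives were library size alone or the size factors of DESeq2, a DESeq2 1.42.0 test or a quality-weighted limma-voom fit (limma 3.58.1), no count filter or at least 5 CPM in 2 libraries, the compared groups alone, the replicate number as a block, each library left out, B7low PBS 2 and B7hi HDM 2 left out together (the libraries with the lowest totals), and the longest transcript as length. The proteases, lists and tests were chosen with earlier results of these data known. Genes named besides the 8 are, of each list, up to 4 with the smallest p over both challenges, markers for their level, and the 5 nearest in pattern to Cma1, Mcpt1, Mcpt8 and Gzmb with a mean of at least 20 CPM. Named outside this rule, after their values were seen, are Rab27a, Rab38, Ctsc and Srgn among the activation genes, Runx1 and Skil among the regulators, and Kcnq1ot1, Ecm1, Il6 and the low genes of the locus.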

Additional observations from a re-analysis of the deposited data

How the results depend on the processing

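Cma1 and Mcpt4 stayed lower in B7hi and past the threshold in all 3 population comparisons under every alternative run, with log2 fold changes of −4.29 to −1.89 and −6.61 to −4.44. Leaving out 1 library at a time gave 2 to 4 of the 8 genes past the threshold with PBS, 2 to 3 with HDM, 2 to 4 over both challenges and 0 in the other comparisons. The 2 calls with PBS became 4 with DESeq2, with limma-voom and with only the groups compared. The 2 calls with HDM became 4 with limma-voom. The 0 calls for HDM over PBS in B7hi became 1 (Cma1) with DESeq2, limma-voom and no count filter, and the 0 calls of the interaction became 1 (Cma1) with DESeq2 and no count filter. The cause was not tested.

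Signs of unsupported values turned as follows. For Mcpt1 with PBS, limma-voom gave 1.19 and leaving out B7low PBS 2 and B7hi HDM 2 together 7.95 (Mcpt2: 2.90); over both challenges DESeq2 size factors gave −0.055, DESeq2 −0.056 and the 5 CPM filter −0.0042; in B7low the HDM value was −0.032, −0.034 and, with only the groups compared, −0.0069. The interaction without those libraries was −5.67 for Mcpt1 and −1.45 for Mcpt2. Ctsg with HDM was −0.007 by limma-voom, and its HDM effect in B7hi was −0.11 with library size alone, −0.12 by limma-voom, −0.021 with no filter, −0.0037 with the 5 CPM filter and −0.037 without those libraries. Over single libraries left out, values ran over −4.97 to 7.98 (Mcpt1) and −3.59 to 2.94 (Mcpt2) with PBS, −0.36 to 0.61 (Ctsg) with HDM, −1.51 to 4.97 (Mcpt1), −1.18 to 2.09 (Mcpt2) and −0.53 to 0.049 (Ctsg) over both challenges, −0.51 to 0.45 (Ctsg) for HDM in B7hi, −0.75 to 0.27 (Cma1), −2.61 to 9.95 (Mcpt1), −0.25 to 4.72 (Mcpt2) and −0.91 to 0.28 (Mcpt4) for HDM in B7low, and −6.03 to 6.93 (Mcpt1), −1.70 to 4.83 (Mcpt2) and −1.63 to 0.037 (Mcpt8) for the interaction. Mcpt9 did not pass the filter in 1 of the 10 fits.

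Calls over all genes moved by more than 1.5 times from 689 (PBS), 299 (HDM), 1251 (both), 1 (HDM over PBS in B7hi), 1 (in B7low) and 0 (interaction) as follows. With PBS they were 370 with only the groups compared and 1078 with no filter, and 226, 312 and 444 without B7hi PBS 1, B7hi PBS 2 and B7low PBS 1. With HDM they were 507 with DESeq2 and 548 with no filter, and 156, 147 and 137 without B7hi HDM 2, B7hi HDM 3 and B7low HDM 1. Over both they were 659 and 790 without B7hi PBS 1 and B7hi PBS 2. For HDM over PBS in B7hi they were 55 with DESeq2, 89 with no filter, 9 by limma-voom, 6 with the replicate block, 5 without both libraries, 0 with only the groups compared and 0 to 11 with 1 library left out. In B7low they were 19 with DESeq2, 112 with no filter, 4 with library size alone, 3 with the 5 CPM filter, 2 with the block, 0 with DESeq2 size factors, limma-voom, only the groups compared or without both libraries, and 0 to 13 with 1 library left out. For the interaction they were 44 with DESeq2, 143 with no filter, 2 with library size alone, 3 with the 5 CPM filter, 1 without both libraries and 0 to 3 with 1 library left out. Library size alone moved the median of all genes from 0.03 to 0.30 with PBS and the calls from 306 higher and 383 lower to 655 and 310, with the same 2 of the 8 genes called.

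Whether equal replicate numbers pair libraries is not known from the labels. Of 13 same-number pairs, correlations of deviations ran between −0.11 and 0.19, with 4 over 0.1. In groups of 2 libraries the deviations mirror each other, so the pairs are not independent and the correlations cannot exclude pairing. With the replicate block 1 of the 8 genes passed for HDM over PBS in B7hi (Cma1, edgeR adjusted p = 0.048), 3 with PBS, 3 with HDM and 4 over both challenges, and Ctsg was −0.12 for HDM over PBS in B7hi. Depth limits Mcpt9, with 2 to 16 counts per library.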
